A study of Homo sapiens with 6 samples.

Results

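BRD8 and its partners in the human NuA4 acetyltransferase complex, also called the TIP60 complex, were followed in U251 cells, an established human glioma line. The set held 10 genes of the 61496 features in the table. They were BRD8, EP400, TRRAP, KAT5, EPC1, EPC2, ING3, MRGBP, YEATS4 and DMAP1. The set was chosen by the fall of BRD8 in the comparison described here, so the values of BRD8 are given as a description with no test. The other 9 genes were taken for their place in the complex, with earlier results of these data known. A further 9 subunits of the complex are given apart. The control group was 3 libraries of untreated U251 cells, and the Sev group was 3 libraries of U251 cells exposed to sevoflurane (Sev) gas for 2 h. The labels list several gas concentrations without assigning them to libraries, and the study names the highest of them for its sequencing comparison. Sevoflurane is a volatile anesthetic. The study speaks of independent experiments for its quantitative data in general, but no source says of the sequenced libraries that they came from separate cultures, so the p-values measure the spread between these libraries, which may be technical. A lower level in each cell and a loss from part of the cells cannot be told apart in bulk RNA.

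NuA4 places acetyl groups on histones H4 and H2A and, through its ATPase, exchanges the histone variant H2A.Z into nucleosomes. KAT5 is the acetyltransferase, and EPC1 or EPC2 joins it to ING3 and to the nucleosome. EP400 and TRRAP are very large proteins on which the other modules are assembled, and BRD8, MRGBP, YEATS4 and DMAP1 are smaller subunits. BRD8 carries a bromodomain, a fold that binds acetylated lysine. In glioblastoma it is known for holding H2A.Z at p53 target genes.

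Library totals ran from 38624292 to 46318311 counts, and the summed share of the 10 genes ran from 0.0955% to 0.101%. All 10 passed the expression filter and were among the 27514 features tested. Of 10 glioma and astroglial markers, all were tested, among them VIM at 5485 ± 536 CPM, NES at 1465 ± 46.8 CPM and GFAP at 270 ± 91.4 CPM in control cells (SD, n = 3). OLIG2 was at only 2.39 ± 0.128 CPM. CPM are counts scaled to a common total after TMM normalization, which adjusts libraries to a common composition. Of 8 markers of other cell types, 5 had too few counts to test, and the summed level of all 8 was 4.14 to 5.06 CPM in control and 4.25 to 4.84 CPM in Sev libraries. Of the 3 tested, PECAM1, an endothelial gene, was called higher (0.693 to 1.31 CPM, adjusted p = 0.0409), and its part in the results was not tested.

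BRD8 (ENSG00000112983) lies on chromosome 5, 138139766 to 138178986 on the minus strand (GRCh38, GENCODE 29), head to head with KIF20A, a mitotic kinesin gene on the plus strand. In RefSeq the starts of the pair are 482 bases apart and point away from each other. GENCODE 29 differs, since there the 2 genes overlap and their starts are 267 bases apart. The 250 bases before each start are shown because the 2 genes are neighbours and both were lower in Sev. The 2 windows overlap only at the ends far from the starts, and a common cause of the 2 falls was not tested. Capitals mark matches to 8 short promoter motifs, and the capitals at the end of the KIF20A run open a GC box that continues past its start. The windows are chr5:138178631-138178880 for BRD8 (minus strand) and chr5:138178862-138179111 for KIF20A (plus strand), both in GRCh38.p14.
BRD8: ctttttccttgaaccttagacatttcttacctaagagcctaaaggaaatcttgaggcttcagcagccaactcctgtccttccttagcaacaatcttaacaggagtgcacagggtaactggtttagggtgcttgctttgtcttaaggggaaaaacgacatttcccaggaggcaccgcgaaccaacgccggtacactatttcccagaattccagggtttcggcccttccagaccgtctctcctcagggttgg
KIF20A: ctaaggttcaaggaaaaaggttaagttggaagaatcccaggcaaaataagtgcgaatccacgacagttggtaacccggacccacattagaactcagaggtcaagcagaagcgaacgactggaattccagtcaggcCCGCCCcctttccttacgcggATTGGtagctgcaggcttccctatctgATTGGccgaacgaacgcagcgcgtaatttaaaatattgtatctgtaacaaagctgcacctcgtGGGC

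The motifs were searched on both strands from 250 bases before to 50 bases after the RefSeq start, in 35116 windows. Windows were found for 8 of the 10 genes, 9 windows in all, since EPC1 has 2 starts. TRRAP and ING3 had no entry. The CCAAT box, searched by its 5 letters, was in 34.6% of all windows, the GC box (GGGCGG) in 45.0% and the ETS motif (CCGGAAG) in 10.3%. The E-box (CACGTG) was in 7.26%, the core of the cAMP response element (TGACG) in 24.6% and the TATA motif (TATAAA) in 11.5%. The YY1 motif (AAGATGG) was in 5.84% and the E2F motif (TTCCCGC) in 6.55%. The BRD8 window held the YY1 letters and none of the other 7 motifs. Only 1 other gene of the set, KAT5, held the YY1 letters, and in both windows they began at base 264 from the 5′ end, just inside the transcript. The first 30 bases of each transcript are shown to let the 2 matches be compared, with the YY1 letters in capitals. They lie at chr5:138178601-138178630 (minus strand) for BRD8 and chr11:65712252-65712281 (plus strand) for KAT5.
BRD8: agacttcggggccAAGATGGcgacgggaac
KAT5: agtggagggagggAAGATGGcggaggtggt

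The GC box was found in EP400, KAT5, EPC1, EPC2 and MRGBP, the ETS letters in EP400, KAT5 and DMAP1, and the E2F letters in EPC1, EPC2 and MRGBP. The CCAAT box was found in EPC1 and DMAP1, the cAMP core in KAT5 and YEATS4, the E-box in KAT5 alone of the 8, and the TATA letters in none of the 8. In KAT5 the E-box overlaps 2 of the cAMP cores. The windows of the set had a GC content of 51.0% to 79.0% with a median of 67.3%, against a median of 58.7% over all windows. BRD8, at 51.0%, was the lowest of the 9. A match is a description of letters and not of binding.

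BRD8 was 64.6% lower in Sev-treated cells. Its level was 77.6, 73.6 and 75.6 CPM in control replicates 1 to 3 and 27.1, 26.3 and 26.9 CPM in Sev replicates 1 to 3. The groups were far apart, and the libraries within a group were close together, with an SD of 2.01 CPM in control and 0.408 CPM in Sev. The raw counts were 2915 to 3670 in control and 987 to 1064 in Sev libraries. The log2 fold change was −1.50 with a standard error (SE) of 0.077, which is 2.83-fold lower. Over the 6 fits that each left out a library it ran from −1.53 to −1.48. KIF20A, which the selection did not use, fell from 161 ± 10.5 to 96.0 ± 5.55 CPM (SD, n = 3), a difference of −0.75 ± 0.085 on the log2 scale (SE, adjusted p = 0.000506 by the quasi-likelihood test of edgeR). Its first exons share 132 bases with those of BRD8 on the opposite strand, 1.87% of the exon bases of BRD8.

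**Figure D1:**
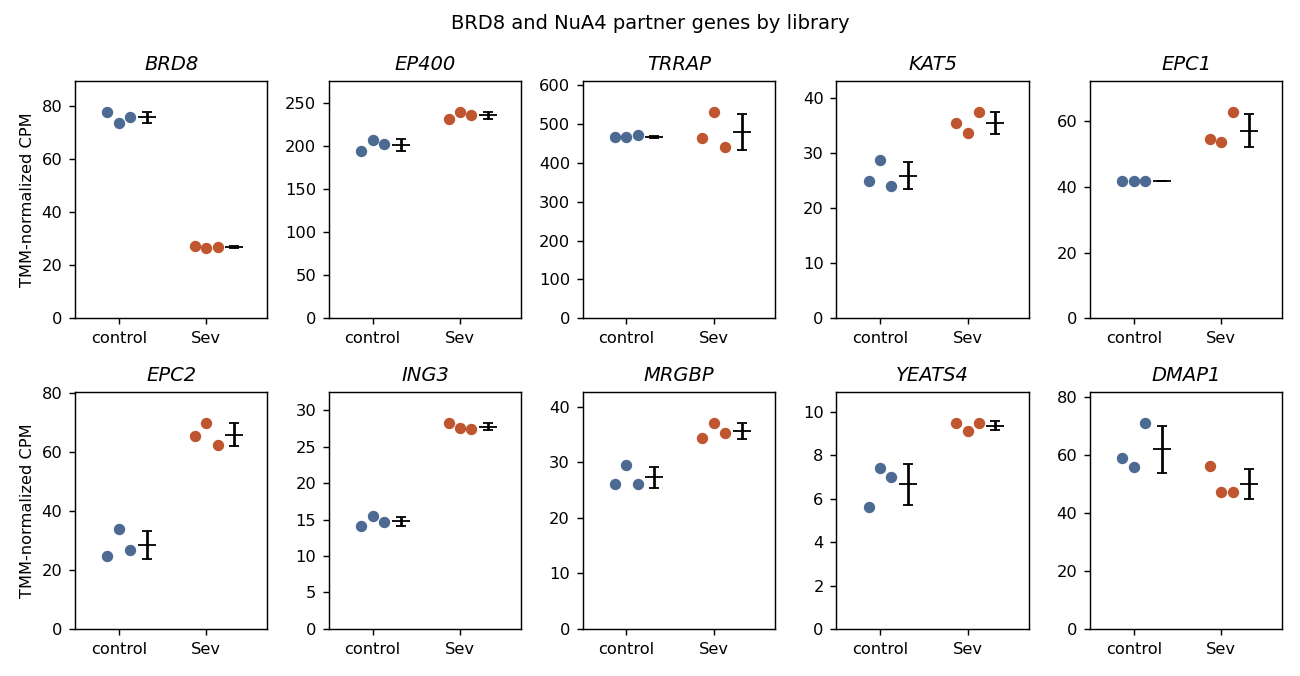
TMM-normalized CPM of the 10 genes, 1 panel per gene, with 1 point per library (blue control, orange Sev) and the mean ± SD of 3 libraries beside the points. BRD8 sits near 75.6 CPM in control and 26.7 CPM in Sev, while the groups of TRRAP and of DMAP1 overlap.

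In contrast to BRD8, the enzyme KAT5 rose. It was at 25.0, 28.8 and 24.0 CPM in the control libraries and at 35.4, 33.6 and 37.5 CPM in the Sev libraries, without overlap. On the log2 scale this was a change of 0.45 ± 0.10 (SE), with an adjusted p = 0.0097. It was 0.27 (adjusted p = 0.069) on log2(FPKM + 1) without a filter, and the call was kept in the other 14 alternatives. EP400, the ATPase that exchanges H2A.Z, was at 193, 206 and 202 CPM in control and 231, 239 and 236 CPM in Sev. This was a small rise, 17.3%, or 0.23 ± 0.069 on the log2 scale (SE, adjusted p = 0.0283). The call of EP400 was lost in 12 of 15 alternatives, including each of the 6 that left out a library, where the adjusted p ran from 0.0508 to 0.0966. The log2 difference of EP400 was 0.089 with library size only and 0.078 to 0.086 on the FPKM settings. TRRAP, a scaffold that activators such as MYC bind, was at 467, 466 and 471 CPM in control and at 464, 532 and 442 CPM in Sev. The Sev libraries spread to both sides of the controls. On the log2 scale it differed by 0.034 ± 0.089 (SE, adjusted p = 0.783), and the value turned to −0.11 with library size only and to −0.043 without Sev replicate 2.

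The largest rise in the set was in EPC2. Its level was 24.7, 33.9 and 26.8 CPM in control and 65.3, 70.0 and 62.5 CPM in Sev libraries. Each Sev library was well above each control library, 2.32-fold on average, or 1.21 ± 0.13 on the log2 scale (SE, adjusted p = 0.00041). The paralog EPC1 was at 41.8 CPM in each of the 3 control libraries and at 54.7, 53.7 and 62.9 CPM in Sev. It rose by 0.45 on the log2 scale (SE 0.090, adjusted p = 0.00542), a call that was lost on the 3 FPKM settings. ING3, a PHD finger protein that reads methylated histone H3, was at 14.2, 15.5 and 14.6 CPM in control and 28.3, 27.6 and 27.4 CPM in Sev. The groups were again apart, by 0.91 ± 0.094 on the log2 scale (SE, adjusted p = 0.000357). The calls of EPC2 and ING3 held in all 15 alternatives.

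Per gene length, EPC2 stood above EPC1 in each library, and further above it in each Sev library. On the FPKM scale, where counts are divided by the length of the gene and the total of the library, the ratio of EPC2 to EPC1 was 1.14, 1.58 and 1.24 in control and 2.32, 2.53 and 1.93 in Sev libraries. The difference between the changes of the 2 genes was not tested. Downstream of the inner RefSeq start of EPC1 and of the start of EPC2 lies a shared run of 26 bases, in capitals, that begins at base 13 of the EPC1 transcript and base 3 of the EPC2 transcript. The 30 bases from the first base of the run lie at chr10:32347117-32347146 (minus strand) and chr2:148644753-148644782 (plus strand) in GRCh38.p14, and are shown as a stretch that the paralogs have in common.
EPC1: TAATGTCCGCCATGTTGGCCATGGCGtatt
EPC2: TAATGTCCGCCATGTTGGCCATGGCGcagg

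Of the smaller subunits, MRGBP and YEATS4 rose and DMAP1 did not pass the test. MRGBP, which binds the chromodomain protein MORF4L1, was at 26.1, 29.5 and 26.1 CPM in control and 34.4, 37.1 and 35.2 CPM in Sev. It rose by 0.38 ± 0.093 on the log2 scale (SE, adjusted p = 0.0125), and the call was lost without control replicate 3 (adjusted p = 0.0588) and with library size only. YEATS4, whose YEATS domain reads acetylated histone H3, was the weakest of the set with 237 to 375 counts per library. It was at 5.60, 7.40 and 7.0 CPM in control and 9.50, 9.13 and 9.47 CPM in Sev, a rise of 0.49 ± 0.15 on the log2 scale (SE, adjusted p = 0.028). This call was lost in 10 of 15 alternatives, among them the fits without control replicate 1, control replicate 3, Sev replicate 1 and Sev replicate 3. DMAP1, a subunit shared with the SRCAP complex, was at 59.1, 55.7 and 71.1 CPM in control and 56.0, 47.2 and 47.1 CPM in Sev. The groups overlap between control replicate 2 and Sev replicate 1, and control replicate 3 stands high. Without that library the log2 difference was −0.20 (adjusted p = 0.235). Its difference was −0.31 ± 0.12 on the log2 scale (SE, adjusted p = 0.0722), and DMAP1 was called lower with library size only and with the 3 FPKM settings.

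Of the 9 partners, 7 were called higher and 0 were called lower at an adjusted p under 0.05. The background for protein-coding genes was 25.0% higher and 21.0% lower, and for all tested features 22.1% higher and 21.5% lower. The median log2 fold change of the 9 was 0.45, against 0.038 for protein-coding genes and −0.0056 for all features. The groups did not overlap for 7 of the 9, all 7 higher in Sev, against 31.2% of protein-coding genes apart upward and 26.6% apart downward. At an unadjusted p under 0.05, 7 were higher and 1, DMAP1, was lower, where 26.1% of features were higher and 26.0% lower. DESeq2 also called 7 higher and 0 lower, with 16.6% of its features called higher and 14.3% lower. With a log2 fold change over 1 and an unadjusted p under 0.05, only EPC2 was past the threshold upward among the 9, against 11.4% of features, and none downward, against 12.0%. Library size only, in place of TMM, moved the median of all features from −0.0056 to −0.15, and 4 of the partners, KAT5, EPC1, EPC2 and ING3, were then called higher. The share of all features called was then 17.0% higher and 27.3% lower. Without control replicate 3, 4 partners were called higher, where 16.8% of all features were. The 9 partners were chosen with earlier results of these data known. Of 9 further subunits of the complex, 1 was called higher and 1 lower.

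**Figure D2:**
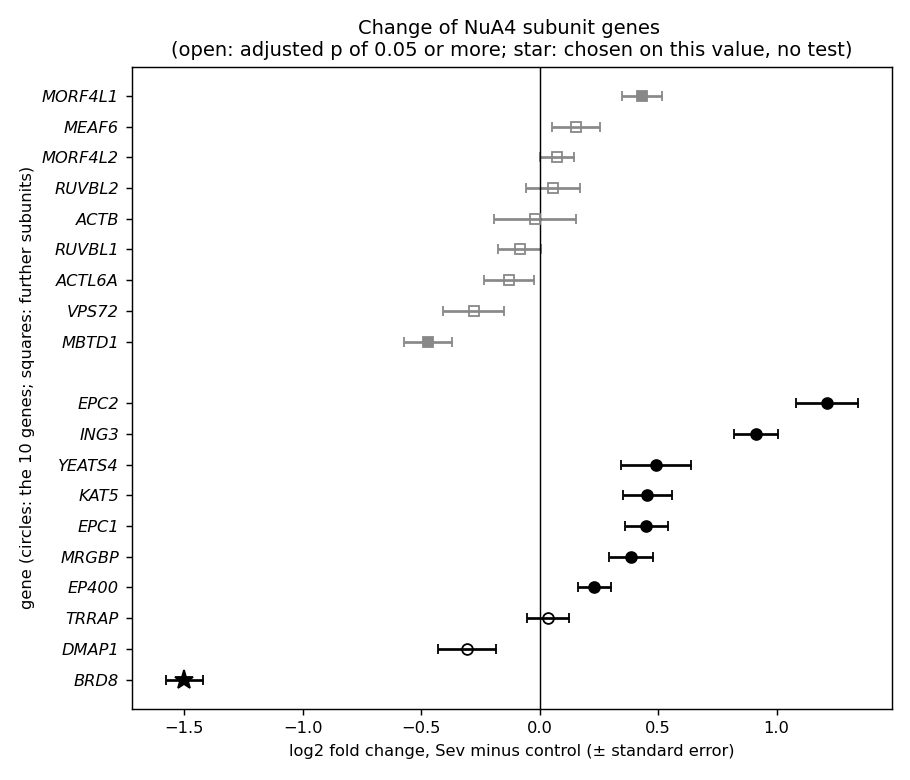
Log2 fold change of Sev minus control with its standard error for the 10 genes (circles, BRD8 as a star) and for 9 further subunits of the complex (squares), with open symbols for genes that were not called. BRD8 at −1.50 and EPC2 at 1.21 are the ends of the range, and the further subunits lie between −0.47 and 0.43.

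In the order of the genes by mean FPKM, BRD8 moved further than any other of the 10. In control cells TRRAP stood first at 20.0 ± 0.413 FPKM, followed by DMAP1 (9.40 ± 1.24), BRD8 (9.15 ± 0.429) and EP400 (9.13 ± 0.118), whose ranges overlap from neighbour to neighbour (SD, n = 3). By library BRD8 was at place 2 in control replicate 1 and at place 4 in the other controls, and MRGBP stood above it in control replicate 2. MRGBP at 8.41 ± 0.478, KAT5 at 5.89 ± 0.505 and EPC2 at 4.15 ± 0.633 FPKM came next by mean, and the ranges of these 3 genes did not overlap with each other. YEATS4 (3.16 ± 0.388) and EPC1 (3.15 ± 0.068) overlapped, and ING3 was last at 2.40 ± 0.063 FPKM. In Sev-treated cells TRRAP was still first at 18.5 ± 1.18 FPKM. MRGBP (9.94 ± 0.289) and EP400 (9.69 ± 0.309) overlapped, and EPC2 came next at 8.72 ± 0.207 FPKM. KAT5 (7.33 ± 0.655) overlapped with DMAP1 (6.87 ± 0.738). ING3 (4.11 ± 0.145), YEATS4 (4.03 ± 0.213) and EPC1 (3.90 ± 0.472) overlapped from neighbour to neighbour. BRD8 was last at 2.91 ± 0.135 FPKM and below each of the others in each Sev library.

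**Figure D3:**
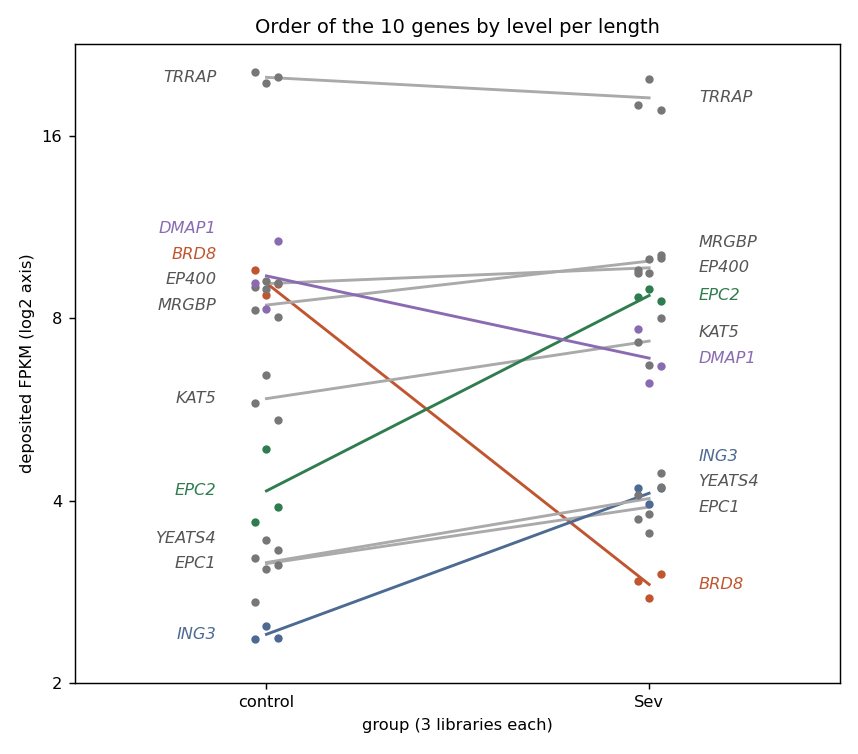
Deposited FPKM on a log2 axis in control and Sev libraries, with 1 point per library and lines joining the group means. By mean, BRD8 goes from place 3, among genes with overlapping ranges, to place 10, and EPC2 from place 7 to place 4.

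The balance of transcripts within the complex was followed as ratios of FPKM within each library, for pairs chosen after the values were seen. BRD8 to EP400 was 1.0 ± 0.060 in control and 0.30 ± 0.00978 in Sev (SD, n = 3). BRD8 to KAT5 went from 1.56 ± 0.177 to 0.397 ± 0.018, and BRD8 to ING3 from 3.81 ± 0.268 to 0.707 ± 0.011. In control cells there was more BRD8 than EPC2 by a ratio of 2.25 ± 0.413, and in Sev-treated cells the ratio was 0.334 ± 0.023. ING3 to KAT5 moved less, from 0.410 ± 0.026 to 0.563 ± 0.034. The ratios with BRD8 rest in part on the value that chose the set.

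**Figure D4:**
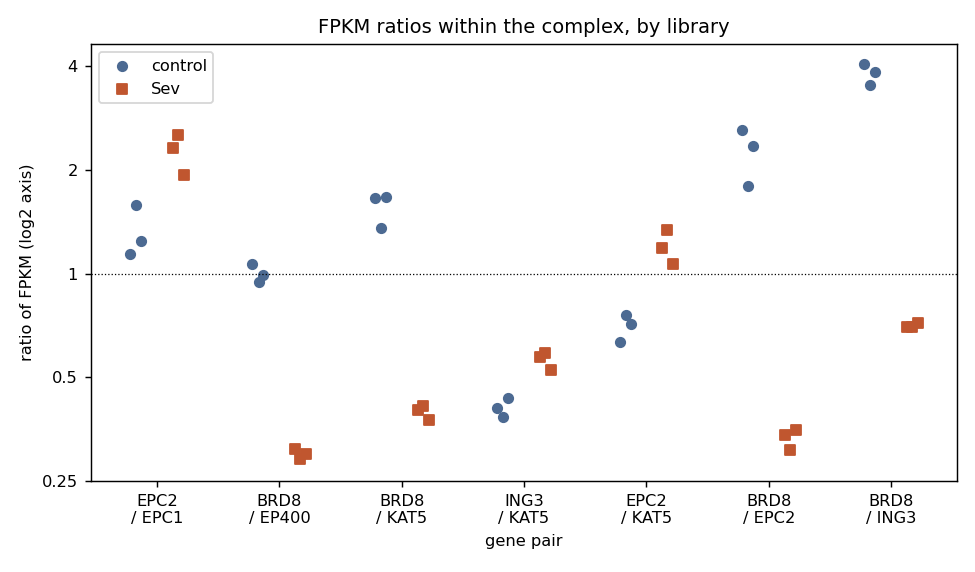
FPKM ratios of 7 gene pairs on a log2 axis, with 1 point per library (blue circles control, orange squares Sev) and a dotted line at 1. BRD8 to EPC2 and BRD8 to ING3 are above 1 in each control library and below 1 in each Sev library, and EPC2 to KAT5 is the reverse.

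Of 9 further NuA4 subunits, 1 was called higher, 1 lower and 7 were not called, with a median log2 fold change of −0.019, where 25.0% of protein-coding genes were called higher and 21.0% lower. MORF4L1, a chromodomain subunit, rose from 260 ± 14.7 to 350 ± 24.5 CPM (log2 fold change 0.43, adjusted p = 0.00511). MBTD1, a reader of methylated histone H4, fell from 36.6 ± 3.35 to 26.4 ± 1.12 CPM (log2 fold change −0.47, adjusted p = 0.00688). VPS72, which holds H2A.Z, and MEAF6 were at log2 fold changes of −0.28 (adjusted p = 0.117) and 0.15 (adjusted p = 0.248). The helicases RUVBL1 and RUVBL2 and the actin-related ACTL6A are shared with other remodelers, and their log2 fold changes were −0.085, 0.056 and −0.13.

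Among 18 genes of H2A.Z exchange, the SRCAP and INO80 subunits, the H2A.Z genes and the chaperone ANP32E, 4 were called higher (22.2%) and 3 lower (16.7%), with a median of 0.15. Both shares are near the 25.0% and 21.0% of protein-coding genes. INO80, the ATPase of its complex, rose from 94.4 ± 5.91 to 134 ± 4.74 CPM (log2 fold change 0.51, adjusted p = 0.00188), and its subunit INO80C from 3.43 ± 0.439 to 6.63 ± 0.937 CPM (0.95, adjusted p = 0.00404). SRCAP, the ATPase that deposits H2A.Z, rose from 192 ± 16.4 to 252 ± 10.1 CPM (0.39, adjusted p = 0.00789). ACTR5 fell from 10.3 ± 0.325 to 6.92 ± 0.762 CPM (−0.58, adjusted p = 0.0102). The genes of the variant itself, H2AZ1 and H2AZ2, were not called, with log2 fold changes of 0.20 (adjusted p = 0.30) and 0.11 (adjusted p = 0.282).

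Of 34 genes of other acetyltransferase complexes, 11 were called higher (32.4%) and 7 lower (20.6%), near the shares of protein-coding genes, with a median of 0.15. Among them BRPF1, a bromodomain scaffold of the MOZ complex, rose from 45.1 ± 3.47 to 81.1 ± 4.17 CPM (log2 fold change 0.85, adjusted p = 0.000411). The SAGA subunits SUPT20H (45.9 ± 2.51 to 21.4 ± 2.28 CPM, −1.10, adjusted p = 0.0003) and SUPT3H (7.93 ± 0.334 to 3.45 ± 0.251 CPM, −1.20, adjusted p = 0.000575) fell. YEATS2, the YEATS reader of the ATAC complex, fell from 170 ± 3.04 to 96.7 ± 6.34 CPM (−0.81, adjusted p = 0.000277).

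Of 40 tested bromodomain genes other than BRD8, 12 were called higher (30.0%) and 9 lower (22.5%), with a median of 0.039, and shares and median are close to those of protein-coding genes. The lists of acetyltransferases and of bromodomain genes share 6 genes, of which BRPF1, CREBBP and EP300 were called higher and KAT2A lower. BRDT had too few counts to test. EP300, an acetyltransferase with a bromodomain, rose from 176 ± 4.90 to 269 ± 17.3 CPM (log2 fold change 0.61, adjusted p = 0.00077). BRWD1 fell from 124 ± 4.49 to 58.7 ± 6.57 CPM (−1.08, adjusted p = 0.000223).

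**Figure D5:**
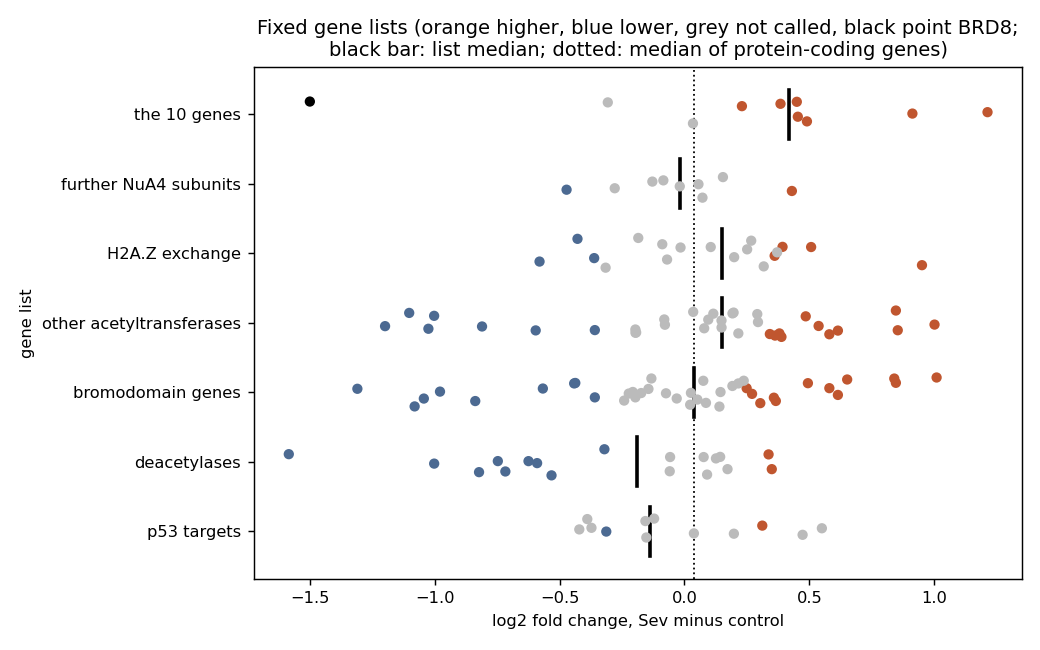
Log2 fold changes of the tested genes in 7 gene lists, 1 point per gene (orange called higher, blue called lower, grey not called, black BRD8), with the list median as a black bar and the median of protein-coding genes as a dotted line. The median of the 10 genes is 0.42, and those of the further subunits and the bromodomain genes are −0.019 and 0.039.

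In GRCh38 (GENCODE 29), KAT5 (ENSG00000172977) lies at chr11:65711996-65719604, EP400 (ENSG00000183495) at chr12:131949920-132081102 and TRRAP (ENSG00000196367) at chr7:98877933-99050831, all on the plus strand. EPC1 (ENSG00000120616) lies on the minus strand at chr10:32267751-32378798, and EPC2 (ENSG00000135999) and ING3 (ENSG00000071243) on the plus strand at chr2:148644440-148787568 and chr7:120950749-120977216. MRGBP (ENSG00000101189, chr20:62796453-62801738), YEATS4 (ENSG00000127337, chr12:69359703-69390796) and DMAP1 (ENSG00000178028, chr1:44213455-44220681) are on the plus strand. Members overlap other genes in places, and although the adapters kept the strand, no source says if it was used for the counts. KAT5 shares 38.6% of its exon bases with RNASEH2C on the opposite strand, which was at 15.1 ± 3.13 CPM in control and 18.4 ± 2.12 CPM in Sev (log2 fold change 0.29, adjusted p = 0.20). TRRAP shares 735 exon bases with SMURF1, a ubiquitin ligase gene on the opposite strand that rose from 101 ± 0.864 to 219 ± 16.2 CPM (1.12, adjusted p = 0.000108). MRGBP shares 16.3% of its exon bases with OGFR-AS1, which had 7 to 13 counts per library. Antisense genes share 9.09% of the exon bases of EPC1, and EP400 shares 2.65% with an antisense gene at 0 counts in each library. The antisense genes that share exon bases with EPC1 are EPC1-AS2, with 2 to 5 counts per library, ENSG00000227253, with 10 to 14, and ENSG00000226842, with 0 to 5. EPC1-AS1 shares 0 exon bases with EPC1 and was called lower, with 17 to 25 counts in control and 5 to 10 in Sev libraries. EPC2, ING3, YEATS4 and DMAP1 share no exon base with another annotated gene. The part of these overlaps in the results was not tested.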

How the data were processed

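RNA was sequenced from 3 control and 3 Sev libraries of U251 cells, depleted of ribosomal RNA, with strand-specific adapters. Raw counts per gene were deposited, as was a separate table of FPKM. The submitters' processing notes name bcl2fastq 2.19, featureCounts and the build hg18, and the aligner is not given in the sources used here. The tables hold no coordinates. Positions came from GENCODE 29 (GRCh38) and promoters from RefSeq (GRCh38.p14), by identifier and symbol, so no hg18 position was used. For 97.9% of features with at least 100 counts in each library, counts divided by FPKM gave 1 fixed length within 2%, so the FPKM hold no information on isoforms.

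Members and lists were chosen with earlier results of these data known. The counts were filtered with filterByExpr, normalized by TMM and tested in edgeR 4.0.16 (R 4.3.3) with glmQLFTest and Benjamini-Hochberg adjustment over 27514 features. A gene was called at an adjusted p under 0.05. Standard errors are the absolute log2 fold change over the square root of F. Named genes were the 10 members, the 4 genes with the smallest p in each list, the 5 genes nearest to the profile of BRD8, and annotated genes that overlap a member or start within 5 kb. Further genes named in the lists were chosen after their values were seen. A gene named by this rule is not reported here. Alternatives were DESeq2 1.42.0, its size factors, library size only, 2 other count filters, the replicate block, each library left out, and limma 3.58.1 on log2(FPKM + 1) or log2(FPKM + 0.1), after keeping features that reached 0.5 FPKM in 3 libraries, and the former also unfiltered. The fits were tested on simulated data. The 3 libraries per group limit the precision.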

Additional observations from a re-analysis of the deposited data

How the results depend on the processing

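Over the 15 alternatives BRD8 stayed lower, with a log2 fold change of −1.64 with library size only, −1.38 on log2(FPKM + 1) with or without the filter and −1.62 on log2(FPKM + 0.1). TRRAP turned to −0.11 with library size only and on the 3 FPKM settings, and ran from −0.043 to 0.091 with a library left out. Of the 9 partners, 4 were called higher with library size only, on log2(FPKM + 1) and on log2(FPKM + 0.1), 3 on log2(FPKM + 1) without the filter, and 4 to 6 with a library left out (4 without control replicate 3). Over all features 22.1% were called higher, against 17.0%, 16.4%, 16.2% and 9.64% in these settings and 16.8% without control replicate 3. With library size only and on the 3 FPKM settings 1 partner, DMAP1, was called lower. Over all features 27.3% were called lower with library size only, 30.0% and 29.2% on the filtered FPKM settings and 14.5% on the unfiltered one. The p53 targets called numbered 5 with library size only and on both filtered FPKM settings, 4 on the unfiltered one, 1 without a filter on counts, and 0 to 2 with a library left out (0 without Sev replicate 1). Over all features 43.7% were called in either direction, against 44.2% with library size only, 46.4% and 45.4% on the filtered FPKM settings, 24.1% on the unfiltered one, 23.5% without a filter on counts, 33.6% without control replicate 1 and 32.5% without Sev replicate 1. With a library left out, 4 to 7 H2A.Z exchange genes (4 without Sev replicate 1) and 6 to 10 deacetylase genes (6 without control replicate 1) were called. The causes, among them the shift of the median of all features and the smaller number of libraries, were not tested.

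Nothing says that a replicate number marks a shared culture, and the deviations of same-numbered libraries correlated by −0.0072, 0.0035 and 0.027. With the replicate block 5 partners and 1 p53 target were called, and 10249 features in all (37.3%) against 12014 (43.7%) without it.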

Other observations

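Of 18 genes of the histone deacetylase and sirtuin families, 9 were called lower and 2 higher, with a median log2 fold change of −0.19, where 21.0% of protein-coding genes were called lower and 25.0% higher. In either direction 6 of the 18 were called without control replicate 1, where 33.6% of all features were. Without control replicate 3 the count was 7, where 32.4% of all features were called. HDAC8 fell from 74.8 ± 4.77 to 37.3 ± 1.69 CPM (SD, n = 3, log2 fold change −1.0, adjusted p = 0.000183). HDAC4 fell from 60.7 ± 2.61 to 36.1 ± 2.80 CPM (−0.75, adjusted p = 0.000685), HDAC6 from 45.9 ± 1.64 to 30.5 ± 3.83 CPM (−0.59, adjusted p = 0.00418) and SIRT3 from 11.6 ± 1.06 to 7.05 ± 0.549 CPM (−0.72, adjusted p = 0.00408). The others called lower were HDAC5, HDAC10, HDAC11, SIRT4 and SIRT5. Not all members of these families act on histones, since SIRT3, SIRT4 and SIRT5 are mitochondrial, HDAC6 acts mainly on tubulin and HDAC10 on polyamines. HDAC9 and SIRT7 were the genes called higher.

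Of 12 p53 target genes, a list taken because of what BRD8 is known for, 1 was called higher and 1 lower (8.33% each), below the 25.0% and 21.0% of protein-coding genes, with a median of −0.14. With library size only 5 of the 12 were called, where 44.2% of all features were. MDM2, which marks p53 for degradation, rose from 175 ± 15.0 to 218 ± 19.8 CPM (log2 fold change 0.31, adjusted p = 0.0351), and TP53INP1 fell from 37.2 ± 3.51 to 30.0 ± 0.778 CPM (−0.31, adjusted p = 0.0343). SESN1 and PLK3 were at −0.42 (adjusted p = 0.0577) and 0.55 (adjusted p = 0.0613). Among the glioma markers, CD44 and EGFR were called higher and SOX2, S100B and OLIG2 lower, and their part in the other results was not tested.

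The genes with the profile nearest to BRD8 over the 6 libraries, by the Euclidean distance of centred log2 CPM, were GOLGA8O (0.103), ENSG00000287811 (0.112), ATP8B2 (0.14), ENSG00000280071 (0.142) and VIPAS39 (0.144). ATP8B2, a phospholipid flippase subunit gene on chromosome 1, was at 84.4 ± 3.38 CPM in control and 31.0 ± 1.28 CPM in Sev. VIPAS39, a vesicle sorting gene on chromosome 14, was at 14.8 ± 1.19 and 5.26 ± 0.177 CPM. GOLGA8O belongs to a family of near-identical copies between which reads can be split, so its value is uncertain. The distance is a description, since it follows the same contrast that chose BRD8.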
